A study of Mus musculus with 12 samples.

Results

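Interleukin 1 alpha and beta, their natural antagonist, interleukin 18, a shared receptor chain and 3 core genes of the inflammasome were followed in mouse macrophages exposed to a bacterial-type lipopeptide. The 8 genes, of 18194 with a named probeset on the array, are Il1a, Il1b, Il1rn, Il18, Il1rap, Nlrp3, Casp1 and Casp4. They were chosen by name, and each was read from the probeset with the highest mean over 11 of the 12 arrays. The macrophages were recruited to the peritoneum of mice with thioglycollate and came from wild-type mice, from IRAK2 knockout mice, and from mice that lack both IRAK1 and IRAK2 (the double knockout here). Cells of each genotype were given MALP-2, a lipopeptide sensed by TLR2 together with TLR6, at 100 ng/ml for 2, 4 or 8 h, or were left unstimulated (0 h). IRAK1 and IRAK2 are kinases that relay signals from Toll-like receptors and from the interleukin 1 receptor, and the comparisons ask what the loss of IRAK2 alone, and of both kinases, does to the transcript response. Each of the 12 groups is 1 array, and the labels state neither the age, sex and strain of the mice, nor how the alleles were made, nor how many mice gave cells to an array.

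Levels are log2 values made with RMA, so a difference of 1 is a 2-fold difference. Levels of different genes are not compared, since probes differ in brightness. The floor used was 3.83, the median of all values on the 11 arrays, and a difference from a level under it is a lower limit. As a check of the labels, the Irak2 probeset was lower than in wild type over the stimulated times, by -1.29 log2 in the IRAK2 knockout (adjusted p 0.026) and by -1.28 in the double knockout (adjusted p 0.0011). The 4 Irak1 probesets differed by -1.22, -0.66, -0.25 and -0.24 log2 between the double knockout and wild type; no source used here gives the deleted segments, so the place of these probes in them is unknown. The unstimulated double-knockout array stood apart, with correlations of 0.764 to 0.804 with the other arrays, which correlated at 0.954 or more among themselves. It was printed but not used as a baseline, and the mean of the other 0 h arrays stood in for it. The actin 5' minus 3' difference, a sign of RNA length, was -4.68 to -3.87 log2 on the 3 stimulated double-knockout arrays and -3.72 to -3.18 on the 8 arrays of the other genotypes; for Gapdh it was -5.90 to -4.36 against -3.84 to -3.42. Of 10 macrophage markers 9 had a stimulated mean at or above the floor in every genotype, and Cd163 was below it. The summed signal of the 10 was 14.55 to 14.72 log2 in stimulated wild type, 14.58 to 14.7 without IRAK2 and 14.45 to 14.47 in the double knockout. Single markers differed in both directions between wild type and the double knockout at 2, 4 and 8 h. More of them were lower in the double knockout at each time than were higher. Marco read 7.61, 9.27 and 11.01 against 5.87, 5.64 and 6.44, and Cd14 11.3, 11.06 and 10.7 against 10.15, 9.24 and 8.1. Adgre1 read 10.58, 11.03 and 11.5 against 10.29, 10.33 and 10.42, and Itgam, Fcgr1 and Lyz2 were also lower at each time. Only Csf1r (12.82, 12.93 and 13.06 against 13.13, 13.17 and 13.31) and Mertk (6.7, 6.04 and 6.97 against 7.14, 6.75 and 7.44) were higher at each time.

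Interleukin 1 alpha and beta signal through the same receptor, made of IL1R1 and the accessory chain that Il1rap encodes, and the product of Il1rn occupies IL1R1 without signalling. Interleukin 1 beta and interleukin 18 are made as precursors that caspase-1 cleaves inside the inflammasome, which NLRP3 assembles after a danger signal, while mouse caspase-11 (Casp4) senses cytosolic lipopolysaccharide. Toll-like receptor signalling is known as the priming step, which supplies the transcripts of the precursors and of NLRP3. Arrays of transcripts do not show cleavage or secretion.

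MALP-2 raised all 8 transcripts in wild-type and IRAK2-knockout macrophages together, from a small step for Casp1 to a very large one for Il1b. The comparison set the mean of 2, 4 and 8 h against 0 h over the 8 arrays of these genotypes, with genotype as a factor, in a limma fit of 10801 genes. All 8 genes passed a Benjamini-Hochberg adjusted p of 0.05 as higher, where 18.9% of all genes tested did so and 28.1% were lower. The median response was 2.03 log2 for the 8 genes and -0.06 for all genes tested. These p-values weigh a difference against its constancy over arrays of different times and genotypes, not against the spread between mice.

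**Figure D1:**
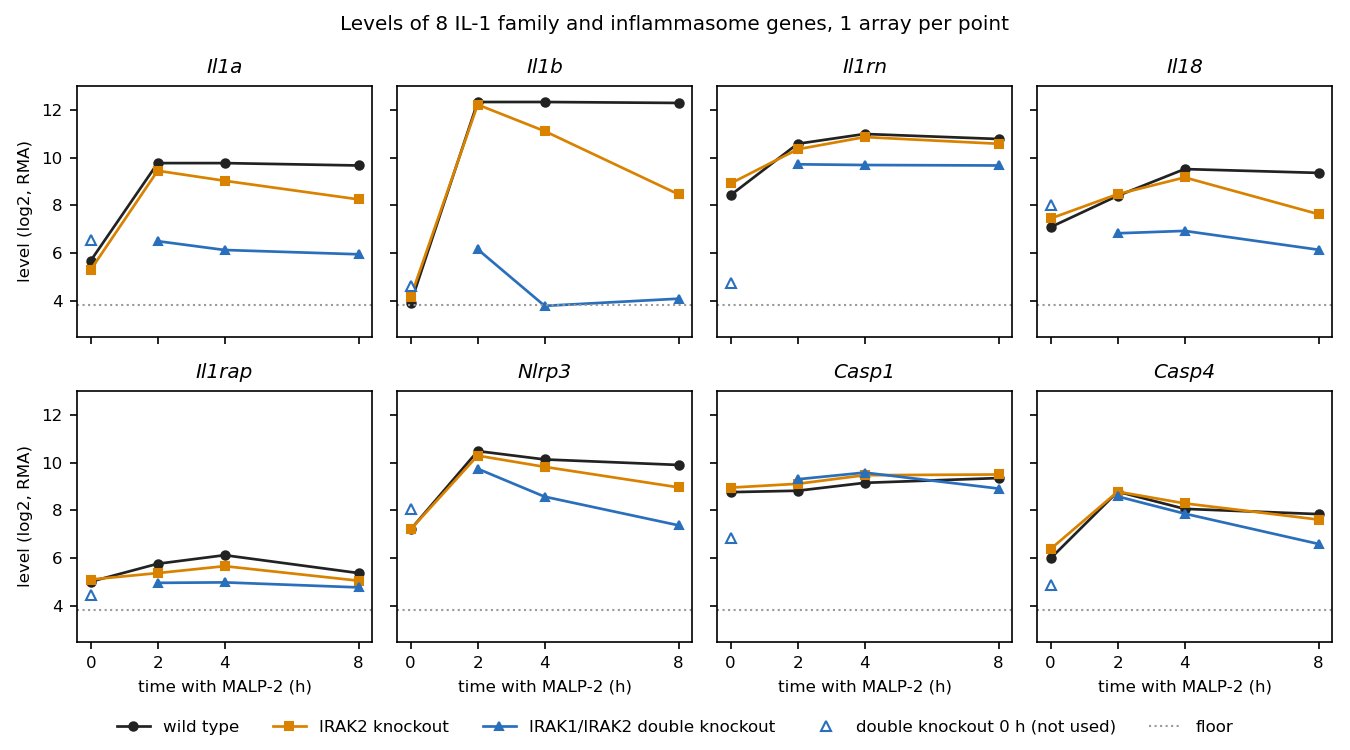
Levels of the 8 transcripts (log2, RMA) against hours with MALP-2, 1 array per point, for wild type, IRAK2 knockout and double knockout, with the unused double-knockout 0 h array as an open triangle and the floor of 3.83 as a dotted line. Wild-type Il1b stays between 12.29 and 12.33 from 2 to 8 h while the IRAK2 knockout declines to 8.46, and the stimulated double-knockout levels of Il1b lie between 3.79 and 6.16.

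Il1b, the gene of interleukin 1 beta, read 3.90, 12.33, 12.33 and 12.29 at 0, 2, 4 and 8 h in wild-type cells, 4.16, 12.22, 11.11 and 8.46 in cells without IRAK2, and 4.61, 6.16, 3.79 and 4.09 in cells without both kinases. Wild type was thus flat from 2 to 8 h, the IRAK2 knockout read close to it at 2 h and far lower at 8 h, and every stimulated double-knockout array was below every other stimulated array. Its response over wild type and the IRAK2 knockout was 7.43 log2 (SE 0.66, adjusted p 7.96e-05), the highest estimate of the 10801 genes. Both 0 h levels lie near the floor of 3.83, and above it.

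Il1a, the gene of interleukin 1 alpha, which acts without caspase-1 cleavage, read 5.68, 9.77, 9.77 and 9.67 in wild-type cells, 5.30, 9.45, 9.03 and 8.25 in cells without IRAK2, and 6.56, 6.50, 6.13 and 5.95 in cells without both kinases. Its pattern over the arrays followed that of Il1b, with no overlap between the stimulated double-knockout levels and those of the other genotypes. The response was 3.83 log2 (SE 0.20, adjusted p 7.07e-06). Il1a and Il1b are neighbouring genes on chromosome 2, and the 250 bases before their start sites are shown because they are the pair with the most similar pattern and the largest differences between genotypes. The sequences are RefSeq's on GRCm38.p6, from the minus strand, at chr2:129371140-129371389 (Il1b) and chr2:129309973-129310222 (Il1a); capitals mark TATAAA and, in Il1a, the AP-1 motif TGANTCA.
Il1b: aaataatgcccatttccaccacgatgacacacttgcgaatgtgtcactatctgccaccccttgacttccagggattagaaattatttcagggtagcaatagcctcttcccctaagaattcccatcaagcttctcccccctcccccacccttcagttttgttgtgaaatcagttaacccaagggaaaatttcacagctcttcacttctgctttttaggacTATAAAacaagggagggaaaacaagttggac
Il1a: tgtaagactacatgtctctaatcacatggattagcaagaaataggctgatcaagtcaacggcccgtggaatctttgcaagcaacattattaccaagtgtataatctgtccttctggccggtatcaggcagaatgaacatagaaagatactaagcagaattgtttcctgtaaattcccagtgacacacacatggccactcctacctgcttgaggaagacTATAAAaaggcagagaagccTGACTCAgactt
TATAAA begins at position -31 in Il1b and at -32 in Il1a, counted from the start site, and the AP-1 letters of Il1a begin at -12.

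Il1rn, the gene of the interleukin 1 receptor antagonist, read 8.43, 10.58, 10.99 and 10.78 in wild-type cells, 8.92, 10.35, 10.86 and 10.58 in cells without IRAK2, and 4.74, 9.72, 9.69 and 9.67 in cells without both kinases. On this main probeset, the antagonist transcript stayed within 0.23 log2 of its 2 h level at 8 h in all 3 genotypes. The stimulated double-knockout levels of that probeset were all below those of the other genotypes, by less than for the agonists Il1a and Il1b. The other probesets, described below, differed from it. Probeset 1425663_at did not show the genotype difference, and 1423017_a_at read 4.63 at 2 h and 5.23 at 8 h in wild type. The response of the main probeset was 2.02 log2 (SE 0.15, adjusted p 3.06e-05).

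Il18, the gene of interleukin 18, an inducer of interferon gamma, read 7.09, 8.40, 9.52 and 9.36 in wild-type cells, 7.45, 8.47, 9.17 and 7.63 in cells without IRAK2, and 8.02, 6.83, 6.93 and 6.14 in cells without both kinases. It was still higher at 4 h than at 2 h in wild type and the IRAK2 knockout, and the IRAK2-knockout level at 8 h lay near its 0 h level. The response was 1.49 log2 (SE 0.34, adjusted p 0.0081). That call was lost without the 4 h arrays (1.2 log2, adjusted p 0.062) and with a variance prior that follows the level and is robust to outliers (adjusted p 0.071).

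Il1rap, the gene of the receptor accessory chain, which also serves other receptors of the family, read 5.01, 5.76, 6.12 and 5.37 in wild-type cells, 5.10, 5.37, 5.66 and 5.05 in cells without IRAK2, and 4.46, 4.96, 4.98 and 4.77 in cells without both kinases. The highest level of each stimulated time was that of wild type and the lowest that of the double knockout, although the IRAK2-knockout level at 8 h was only slightly above the double-knockout level at 4 h. The response was 0.50 log2 (SE 0.12, adjusted p 0.01), and it was not called without the 4 h arrays (0.33, adjusted p 0.089).

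Nlrp3, the gene of the sensor, read 7.20, 10.48, 10.13 and 9.90 in wild-type cells, 7.20, 10.29, 9.82 and 8.96 in cells without IRAK2, and 8.06, 9.74, 8.57 and 7.37 in cells without both kinases. It was highest at 2 h in all 3 genotypes, and at 2 h the double knockout lay close to the other genotypes. By 8 h the double-knockout level was near the 0 h levels of wild type and the IRAK2 knockout. The response was 2.73 log2 (SE 0.17, adjusted p 1.52e-05).

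Casp1, the gene of caspase-1, read 8.76, 8.82, 9.15 and 9.35 in wild-type cells, 8.95, 9.11, 9.47 and 9.50 in cells without IRAK2, and 6.84, 9.30, 9.58 and 8.91 in cells without both kinases. Leaving aside the double-knockout 0 h array, all its levels lie within a narrow range, and the stimulated levels of the 3 genotypes overlap. It had the smallest response of the 8 genes, 0.38 log2 (SE 0.09, adjusted p 0.0077).

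Casp4 read 5.99, 8.78, 8.06 and 7.84 in wild-type cells, 6.38, 8.78, 8.29 and 7.61 in cells without IRAK2, and 4.86, 8.58, 7.86 and 6.59 in cells without both kinases. All 3 genotypes were highest and close together at 2 h, and the double knockout was the lowest at 8 h. The response was 2.04 log2 (SE 0.13, adjusted p 1.56e-05), although Casp1, its neighbour on chromosome 9, read nearly flat. The 250 bases before the Casp4 start site are shown because Casp4 read close to wild type at 2 h in the double knockout and its promoter holds an NF-kB motif (GGG, any 2 bases, TTTCC) at 2 places. They are RefSeq's on GRCm38.p6, plus strand, at chr9:5308599-5308848, with both matches in capitals.
Casp4: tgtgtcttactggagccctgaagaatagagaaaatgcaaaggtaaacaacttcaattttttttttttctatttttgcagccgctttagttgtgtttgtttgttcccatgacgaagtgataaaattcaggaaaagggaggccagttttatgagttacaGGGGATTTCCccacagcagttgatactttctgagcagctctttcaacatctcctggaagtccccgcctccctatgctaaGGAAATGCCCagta
The first match begins at position -93 and the second, read on the opposite strand, at -14. Whether these matches bear on the 2 h level was not tested.

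RefSeq's promoter table held 12 start sites for the 8 genes, each from 250 bases before to 50 after the start, and 6 motifs were searched on both strands. A gene was counted when any of its start sites held the motif, while the shares of all promoters count each start site. The NF-kB motif GGG, any 2 bases, TTTCC occurred in 2 of the 8 genes, Casp4 and Il1rn. By start site it was in 4 of the 12, some of whose windows overlap, and in 1.63% of 32851 promoters. A looser form, GGG, any 5 bases, CC, which contains every match of the first, occurred in Il1rn, Il1rap, Nlrp3, Casp1 and Casp4. By start site it was in 9 of the 12 and in 50.8% of promoters. TGANTCA occurred in Il1a and Il1rn (7.81% of promoters), the IRF motif GAAA, any 2 bases, GAAA in Il1rap (3.44%), and TATAAA in Il1a, Il1b, Il1rn and Il18 (13.6%). The C/EBP motif TTGCNNAA occurred in none of the 8 (10.8% of promoters). A match is a description of letters, and the absence of one says only that these letters are not in these windows.

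Read from the main probesets, 6 of the 8 transcripts were lower over 2, 4 and 8 h in the double knockout than in wild type. The 3 cytokine genes and Nlrp3 differed most, the antagonist and the receptor chain less, and neither caspase gene was called. The limma fit took genotype and time as additive factors over the 9 stimulated arrays and tested 10854 genes, of which 17.3% were lower and 23.7% higher in the double knockout. The median difference was -1.35 log2 for the 8 genes and 0.07 for all genes tested. In whole tissue or cell-population RNA, fewer cells of a type and less RNA per cell cannot be told apart.

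Il1b differed by -7.64 log2 (SE 0.63, 95% interval -9.06 to -6.22, adjusted p 7.95e-05), a 199-fold difference and the lowest estimate of all genes tested. Of its 3 double-knockout levels that at 4 h lies under the floor, so the difference at 4 h is a lower limit. Il1a differed by -3.55 (SE 0.19, -3.97 to -3.12, adjusted p 1.25e-05), and it ranked 16 from the lowest estimate. Both agonists of the receptor thus stand at the lower end of the whole array. Il18 differed by -2.46 (SE 0.31, -3.17 to -1.74, adjusted p 5.66e-04) and Nlrp3 by -1.61 (SE 0.27, -2.23 to -0.99, adjusted p 0.0021). Il1rn, the antagonist, was lower by a smaller step, -1.09 (SE 0.13, -1.39 to -0.80, adjusted p 3.90e-04), as was Il1rap at -0.84 (SE 0.13, -1.13 to -0.56, adjusted p 0.0012). The Il1rn step is that of its main probeset, and another of its probesets, 1425663_at, was at -0.13 (SE 0.12). Casp4 missed the threshold at -0.55 (SE 0.20, -1.01 to -0.09, adjusted p 0.056) and passed it with arrays centred on their medians (adjusted p 0.05 after rounding) and with the robust prior (adjusted p 0.043). Casp1 was at 0.16 (SE 0.18, -0.26 to 0.57, adjusted p 0.52), and without the 8 h arrays it was called higher (0.46, adjusted p 0.027).

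Adding the 0 h arrays of all genotypes to the fit, the deviating one included, left 2 of the 6 calls, Il1b (-5.55, adjusted p 0.045) and Il1rap, and 12 to 13 of the 13 alternatives kept each of the 6. The summed signal of the neutrophil markers, of which 8 of 10 are on the array, was 10.90 to 11.42 log2 in stimulated wild type, 10.75 to 11.14 in IRAK2-knockout cells and 9.79 to 9.84 in the double knockout, with Cxcr2 below the floor throughout. S100a8, whose probeset has the strongest signal of the list and so carries the sum, read 10.67, 10.77 and 11.03 at 2, 4 and 8 h in wild type and 9.41, 9.30 and 9.09 in the double knockout. Csf3r read 6.59, 6.92 and 7.37 against 5.55, 5.20 and 5.61, and Camp 4.65, 5.5 and 5.98 against 3.87, 4.28 and 4.43. Mmp9 (6.37, 7.32 and 8.45 against 6.43, 6.99 and 7.87) and Mmp8 (5.73, 5.30 and 4.98 against 5.48, 5.36 and 4.82) overlapped between these genotypes. The summed signal of the eosinophil and mast cell markers was 6.80 to 7.38 in wild type and 7.92 to 8.28 in the double knockout, with Epx, Prg2 and Mcpt4 below the floor in both. Siglecf carries this sum, with 6.78, 6.73 and 5.76 in wild type against 7.81, 7.67 and 7.36. Cpa3 and Kit were also higher at each time, at levels nearer the floor. The part of these markers, and of the macrophage marker, actin and Gapdh differences given above, in the 6 results was not tested.

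**Figure D2:**
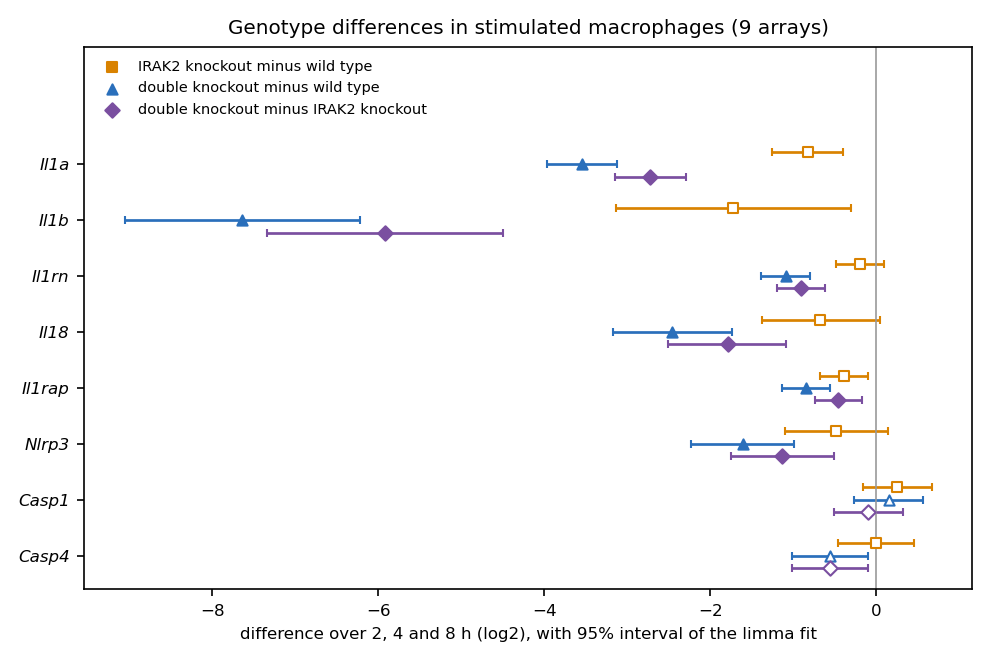
Genotype differences over 2, 4 and 8 h (log2) from the limma fit of 9 stimulated arrays, with 95% intervals; filled symbols passed a Benjamini-Hochberg adjusted p of 0.05 and open ones did not. For Il1b the double knockout lies 7.64 log2 below wild type, both caspase genes are open in all 3 comparisons, and no gene is filled for the IRAK2 knockout against wild type.

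Loss of IRAK2 alone gave no called difference among the 8 genes over the 3 times jointly, while single arrays of the late time stood far apart for the cytokine genes. In the same fit 0 of 8 genes were called, where 0.35% of all genes were lower and 0.415% higher; 3 of the 8 had an unadjusted p under 0.05, as did 1478 of the 10854 genes. They were Il1a at -0.82 log2 (SE 0.19, adjusted p 0.11), Il1b at -1.72 (SE 0.63, adjusted p 0.29) and Il1rap at -0.39 (SE 0.13, adjusted p 0.24). The 95% intervals were -1.25 to -0.40 for Il1a and -3.14 to -0.30 for Il1b, so a missed threshold does not show equal levels. Il1a was called when only the arrays of these genotypes were fitted (adjusted p 0.046). Il18 was at -0.67 (SE 0.31), Nlrp3 at -0.48 (SE 0.27), Il1rn at -0.19 (SE 0.13) and Casp1 at 0.25 (SE 0.18). Casp4 showed the same mean in both genotypes, 8.23. The summed signal of the B cell markers was 7.18 to 8.07 log2 in wild type and 6.54 to 6.96 in the IRAK2 knockout, with Pax5 below the floor in both. Ighm carries this sum, with 6.37, 6.87 and 7.55 at 2, 4 and 8 h in wild type against 5.36, 5.95 and 5.42. Cd79a, Cd79b and Ms4a1 were also lower at each time, at levels nearer the floor. The part of these markers in the differences was not tested.

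At single times, each a difference between a pair of arrays with no test, the IRAK2 knockout was farther from wild type at 8 h than at 2 h for the cytokine genes and Nlrp3. No member was at least 2-fold lower at 2 h, where 0.286% of all measured genes were; 1 was at 4 h (0.528% of all), namely Il1b, and 3 were at 8 h (1.21% of all). Those at 8 h were Il1b, lower by -3.82 log2 or 14.2-fold, Il18 by -1.73 and Il1a by -1.42. Nlrp3 followed at -0.94, while Il1rap (-0.32), Casp4 (-0.23), Il1rn (-0.21) and Casp1 (0.15) stayed close to wild type. In the unstimulated arrays the 8 differences lay between -0.38 and 0.48 log2.

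The difference of the double knockout from wild type was already large at 2 h for Il1b and Il1a. It was larger at 8 h than at 2 h for Il1b, Nlrp3, Il18 and Casp4, and by less for Il1a and Il1rn. At least 2-fold lower were 3 of 8 genes at 2 h (4.5% of all measured genes), 6 at 4 h (6.14%) and 6 at 8 h (4.89%). Il1b differed by -6.17, -8.54 and -8.19 log2 at 2, 4 and 8 h and Il1a by -3.27, -3.63 and -3.73. Il18 differed by -1.56, -2.60 and -3.22 and Nlrp3 by -0.73, -1.56 and -2.53. The antagonist Il1rn differed by -0.86, -1.31 and -1.11, with no steady course. Casp4 differed by -0.20, -0.20 and -1.25, so that it was past 2-fold only at 8 h. Casp1 was higher at 2 and 4 h (0.48 and 0.43) and lower at 8 h (-0.44).

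**Figure D3:**
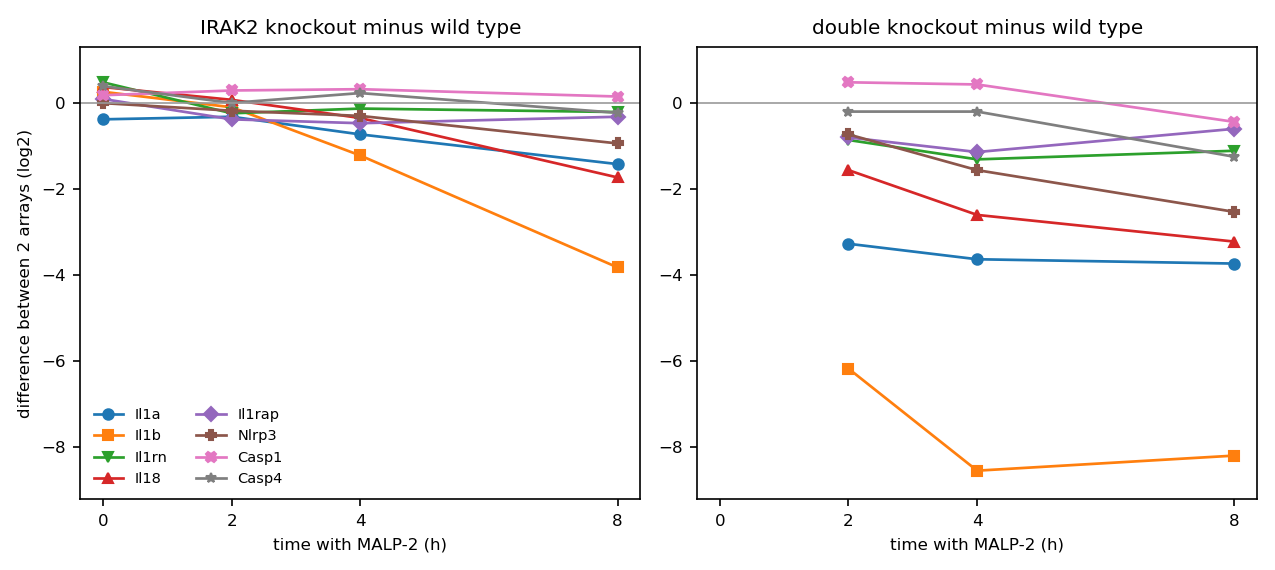
Difference from wild type (log2, 1 array minus 1 array) against hours with MALP-2 for the 8 genes, in the IRAK2 knockout on the left and the double knockout on the right, where 0 h is not drawn. On the left the 8 genes start between -0.38 and 0.48 and Il1b reaches -3.82 at 8 h; on the right Il1b is at -6.17 by 2 h and Nlrp3 goes from -0.73 to -2.53.

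Whether a genotype difference changed from 2 to 8 h was asked with slopes on log2 time in a limma fit with 2 residual degrees of freedom, and no member's slope was called. For the double knockout against wild type, 0.111% of all genes had a called lower slope and 0.0276% a higher one, and 4 of the 8 members had an unadjusted p under 0.05, against 1625 of 10854 genes. Nlrp3 had a slope difference of -0.90 log2 for each doubling of time (SE 0.14, adjusted p 0.073), which was called with the robust prior (adjusted p 0.0093). Il18 was at -0.83 (SE 0.20, adjusted p 0.16), Casp4 at -0.53 (SE 0.17, adjusted p 0.25) and Casp1 at -0.46 (SE 0.15, adjusted p 0.26). Il1b had the lowest estimate of the 8, -1.01 (SE 0.49, adjusted p 0.39), with an unadjusted p of 0.077. For the IRAK2 knockout against wild type, 0.00921% of all genes had a called lower slope, and 4 of the 8 members again had an unadjusted p under 0.05 against 537 genes. Il1b was at -1.86 per doubling (SE 0.49, unadjusted p 0.0068, adjusted p 0.96), the second lowest of all estimates, Il18 at -0.90 (SE 0.20), Il1a at -0.55 (SE 0.14) and Nlrp3 at -0.38 (SE 0.14). For the slope of the double knockout against the IRAK2 knockout, Il1a was at 0.33, Nlrp3 at -0.52, Casp4 at -0.41 and Casp1 at -0.39, with adjusted p of 0.25 to 0.38 (called lower among all genes: 0.00921%). The largest of the 8 estimates there was that of Il1b, 0.85 (SE 0.49, adjusted p 0.48).

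Within each genotype, the genes differed in how the 8 h level compared with that at 2 h: the distance was largest in the IRAK2 knockout for Il1b and Il1a and in the double knockout for Nlrp3 and Casp4. From 2 to 8 h, 4 of 8 genes were at least 2-fold lower in the IRAK2 knockout (3.03% of all measured genes), namely Il1b at -3.76 log2, Nlrp3 at -1.33, Il1a at -1.20 and Casp4 at -1.16. In wild type none was (2.77% of all), with Casp4 the lowest at -0.93 and Il18 the highest at 0.96. In the double knockout 3 were (1.77% of all), namely Nlrp3 at -2.38, Il1b at -2.06 and Casp4 at -1.98. Nlrp3 and Casp4 were thus lower at 8 h than at 2 h in every genotype. So were Il1rap, Il1a and Il1b, the last pair only slightly in wild type. Il1rn differed by at most 0.23 log2 on its main probeset. All of these are sizes of single arrays, without a test.

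Set against the IRAK2 knockout, the double knockout showed what differed when IRAK1 was missing as well. The same 6 genes were lower, where 16.7% of all genes tested were lower and 22.1% higher. The differences were -5.92 log2 for Il1b (SE 0.63, adjusted p 2.98e-04), -2.72 for Il1a (SE 0.19, adjusted p 4.65e-05), -1.79 for Il18 (SE 0.31, adjusted p 0.0027), and -1.13 for Nlrp3 (SE 0.27, adjusted p 0.011). Il1rn was at -0.90 (SE 0.13, adjusted p 0.0011) and Il1rap at -0.46 (SE 0.13, adjusted p 0.021). The Il1rn value is that of its main probeset, and probeset 1425663_at was at -0.015 (SE 0.12). Casp4 was at -0.55 (SE 0.20, adjusted p 0.058), called in 2 of 13 alternatives, and Casp1 at -0.096 (SE 0.18, adjusted p 0.71). Without the 4 h arrays Nlrp3 (-1.07, adjusted p 0.095) and Il1rap (-0.35, adjusted p 0.20) lost the call, as did Il1rap without the 2 h arrays (-0.48, adjusted p 0.087) and with the mean of its probesets (-0.19, adjusted p 0.12); with all 12 arrays none of the 6 kept it. This comparison shares its double-knockout arrays with the one against wild type.

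A response of some genes was visible in double-knockout macrophages when the stimulated arrays were set against the mean 0 h level of the other genotypes, a difference that holds any constant effect of genotype besides the response. At 2 h, 5 of 8 genes were at least 2-fold higher (4.22% of all measured genes): Nlrp3 by 2.54 log2, Casp4 by 2.39, Il1b by 2.13, Il1rn by 1.05 and Il1a by 1.01. In wild type the same genes read 3.27, 2.79, 8.43, 2.15 and 4.09 above 0 h at 2 h. Nlrp3 and Casp4 thus came nearer to wild type than Il1b, Il1rn and Il1a did. At 4 h, 3 genes were past 2-fold (4.57% of all), namely Casp4 at 1.67, Nlrp3 at 1.37 and Il1rn at 1.01. At 8 h none reached 2-fold (3.42% of all did), with Il1rn just under it at 1.0 log2 after rounding, Nlrp3 at 0.17, Casp4 at 0.41 and Il1b at 0.06. Against the double knockout's own deviating 0 h array, Il1rn would read 4.98 higher at 2 h and Nlrp3 1.68, so the choice of baseline decides these sizes.

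The 3 probesets of Il1rn disagreed on the double knockout. The main probeset, 1451798_at, and 1423017_a_at were lower than in wild type over the stimulated times, by -1.09 and -1.13 log2 (the latter with adjusted p 0.0022 when all 22353 probesets were tested), while 1425663_at was at -0.13 (SE 0.12, adjusted p 0.42). Probeset 1425663_at read 8.76, 9.16 and 8.99 at 2, 4 and 8 h in wild-type cells, 8.65, 9.0 and 8.92 in cells without IRAK2 and 8.83, 8.91 and 8.78 in cells without both kinases, so its 3 genotypes overlap. All 3 probesets rose with MALP-2 in wild type and the IRAK2 knockout together, by 2.02, 1.59 and 1.0 log2. Probeset 1423017_a_at read 4.10, 3.81 and 3.90 in the stimulated double knockout, at or near the floor, so the size of its difference is uncertain. The platform annotation gives the 2 brighter probesets, which disagree, the same target accession, and no source used here places their probes along the transcript. Of the 5 Il1rap probesets 3 were below the floor on all 11 arrays, and the second measured one, 1449585_at, gave -0.77 between the double knockout and wild type (adjusted p 0.0025). Averaging all 5 gave -0.31 against wild type (adjusted p 0.021) and -0.19 against the IRAK2 knockout, where the call was lost (adjusted p 0.12). The other 6 genes have 1 probeset each.

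**Figure D4:**
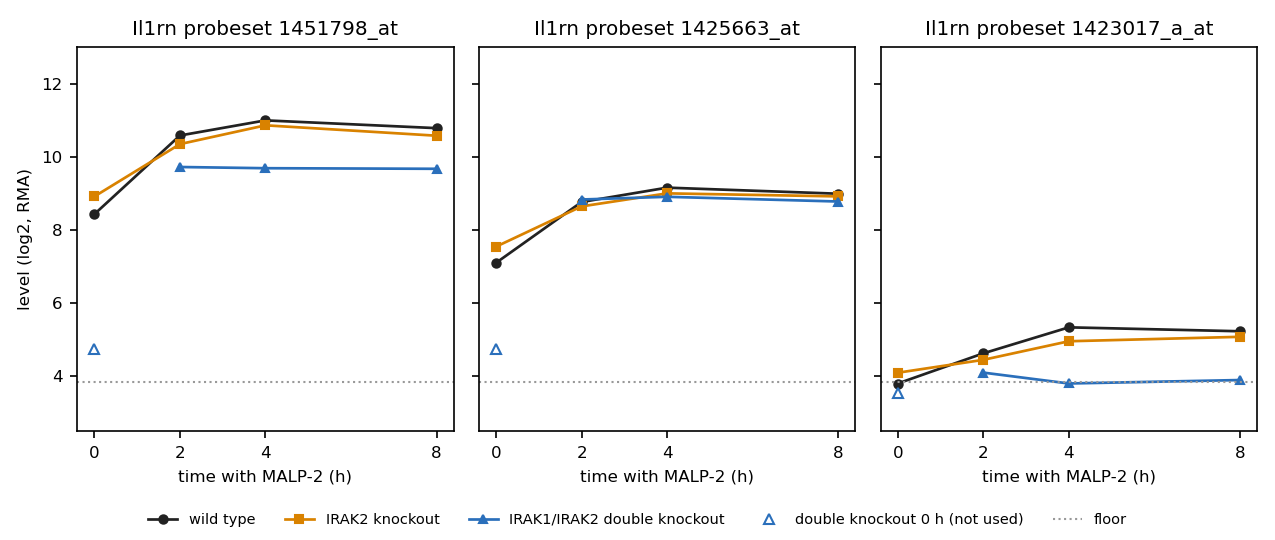
Levels of the 3 Il1rn probesets (log2, RMA) against hours with MALP-2, 1 array per point, for the 3 genotypes, with the unused double-knockout 0 h array open and the floor dotted. In the middle panel the stimulated levels of all genotypes lie between 8.65 and 9.16, while in the left panel the double knockout lies between 9.67 and 9.72, below the other genotypes.

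Other genes of the interleukin 1 and inflammasome pathway were called in both directions. Of a list of 50 such genes, 37 were on the array and 30 were tested between genotypes. Against wild type the double knockout had 3 of 30 lower and 7 higher, with a median of 0.09 log2, where 17.3% and 23.7% of all genes were. The IRAK2 knockout had none in either direction, where 0.35% of all genes were lower and 0.415% higher. An unadjusted p under 0.05 in that fit was seen for 4 of the 30 and for 1478 of the 10854 genes. Against the IRAK2 knockout the double knockout had 6 of 30 lower and 9 higher, where 16.7% and 22.1% of all genes were. With MALP-2 in wild type and the IRAK2 knockout, 5 of 29 rose and 10 fell, where 18.9% and 28.1% of all genes did; counts this near the shares of all genes are no result about the list.

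Mefv, the gene of the sensor pyrin, read 3.92, 8.82, 7.88 and 8.14 in wild-type cells, 4.37, 8.80, 7.46 and 7.0 in cells without IRAK2 and 4.28, 6.99, 4.68 and 4.34 in cells without both kinases. Like Nlrp3 it was highest at 2 h in each genotype, and its differences were -2.94 log2 (SE 0.31, adjusted p 2.28e-04) for the double knockout against wild type and 3.87 (adjusted p 2.01e-05) for the response. Tnfaip3, whose product A20 restrains NF-kB signalling, was lower in the double knockout too (-1.04, adjusted p 6.77e-04). Higher in the double knockout were Serpinb1a (2.63, adjusted p 2.11e-04) and Serpinb9 (1.45, adjusted p 0.0024), which encode serine protease inhibitors. The ATP-gated channel gene P2rx7, whose product triggers NLRP3 activation (1.58, adjusted p 5.86e-04), and the channel gene Panx1 (1.25, adjusted p 0.0029) were also higher, so the ATP-sensing channel and the sensor Nlrp3 lay on opposite sides of wild type. Gbp2, of the guanylate-binding proteins that act on bacterial membranes, rose with MALP-2 by 2.78 (adjusted p 6.47e-07), and Naip5, a flagellin sensor gene whose near-identical relatives can share probes, fell by 1.38 (adjusted p 1.83e-04). The adaptor gene Pycard, which joins NLRP3 to caspase-1, was lower in double-knockout than in IRAK2-knockout cells (-0.56, adjusted p 0.011) and was not called against wild type (-0.35, adjusted p 0.07), and the pore gene Gsdmd rose with MALP-2 by 0.30 (adjusted p 0.019).

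Over the 11 arrays the 8 genes fell into patterns that can be described by Pearson's r of their log2 levels, across arrays that share genotypes and times. Il1a and Il1b had an r of 0.99, Nlrp3 and Casp4 0.95, and Casp1 had -0.02 to 0.47 with the other 7. Among 5121 genes with a range of at least 1 log2, those most like Il1b were Ctu1 (0.989), Il1a (0.988) and Grwd1 (0.985), and those most like Il1a were Il1b (0.988), Ctu1 (0.988) and Nfkb2 (0.985). Nlrp3 was most like Tnfsf9 (0.995), Fnbp1l (0.989) and Gpr85 (0.988), and Casp4 like Slfn2 (0.986), Zfp131 (0.979) and Stx11 (0.977). Il1rn was most like Ddb2 (0.984), Acp2 (0.980) and F10 (0.979), and Il18 like Elavl1 (0.970), Rap1gap2 (0.967) and Ier3 (0.959). Il1rap was most like Ccl17 (0.961), Ifitm1 (0.955) and Mphosph10 (0.940). Casp1, with its narrow range, had the lowest values, with Atxn7l1 at 0.915, Fam174a at 0.908 and Psmd14 at 0.868.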

How the data were processed

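Expression was measured on 12 Affymetrix arrays, 1 per genotype and time, from RNA extracted with Trizol and amplified with the NuGEN Ovation system, per the labels' protocols. The deposited values are log2 levels of 45101 probesets, made by the authors with RMA, per the submitters' processing notes; RMA makes the arrays' distributions equal, so a change in total RNA per cell does not show. No source used here gives its version. Symbols were brought up to date through RefSeq gene identifiers for 34754 probesets; 34958 carry 1 symbol, 932 several and 9211 none, and only those with 1 were named.

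Genes were tested with limma 3.58.1 in R 4.3.3 (prior 4.73 degrees of freedom, prior SD 0.167 log2; 4 residual degrees of freedom for genotype plus time, 3 for the response, 2 for slopes) when their mean reached the floor of 3.83, and called at a Benjamini-Hochberg adjusted p under 0.05 over all genes tested. The scripts were tested on simulated data. At single times differences are sizes without a test, and 2-fold was the size named. The depth of an array is not a count, so the number of arrays, 1 per group, limits the precision. No p-value or interval given here measures the spread between mice. Alternatives changed the arrays, times, filter, centring, variance prior and probeset; testing each probeset on its own was added after the values were seen.

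The 8 genes, the pathway and marker lists and the tests were chosen with earlier results of these data known. Named genes were the 8, Irak1 and Irak2, pathway genes called with at least 1 log2, and the 3 genes of highest r with each of the 8; Pycard and Gsdmd were named after their values were seen.
Other marker lists gave summed signals of 6.54 to 8.07 log2 (B cell, 7.27 to 7.88 of it in the double knockout), 6.10 to 6.42 (T and NK cell), 6.80 to 8.28 (eosinophil and mast cell, 7.92 to 8.28 of it in the double knockout), 6.31 to 7.51 (dendritic cell), 10.96 to 11.27 (mesothelial and stromal) and 4.11 to 4.38 (erythroid) on the stimulated arrays.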

Additional observations from a re-analysis of the deposited data

Results flagged for a closer look

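In 3 genes, by 1 baseline or both, the double knockout read on the other side of its baseline from wild type at every stimulated time, a difference between groups that was not tested. Il18 was above 0 h in wild type by 1.31, 2.44 and 2.27 log2 at 2, 4 and 8 h, and in the double knockout it was below the mean 0 h level of the other genotypes by -0.43, -0.34 and -1.13. Against the double knockout's own 0 h array, which stood apart, Il18 was at -1.88 at 8 h. Il1rap was above 0 h in wild type by 0.75, 1.11 and 0.36, and in the double knockout it was at -0.10, -0.07 and -0.29 against the same mean, but at 0.50, 0.52 and 0.31 against its own 0 h array. Il1a was at -0.62 at 8 h against the double knockout's own 0 h array, but at 0.45 against the mean of the others, so for Il1a and Il1rap the side depends on the baseline.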

How the results depend on the processing

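Counts of called members kept within 1.5 times of the value given in 135 of 140 combinations of count and alternative. That figure includes many counts of 0 that stayed 0, and a fall from 6 to 4, so it is no measure for the called members alone. With all 12 arrays the 6 lower members became 2 against wild type and 0 against the IRAK2 knockout for the double knockout. Without the 8 h arrays 1 member, Casp1, was called higher in the double knockout than in wild type; with only the genotypes compared 1 member, Il1a, was called lower in the IRAK2 knockout; and with the robust prior 1 member, Nlrp3, had a called lower slope in the double knockout. Signs turned only for estimates that were not called. Casp1 in the double knockout was at -0.36 against wild type with all 12 arrays, at -0.0049 without the 2 h arrays, and at 0.15 against the IRAK2 knockout without the 8 h arrays. Casp4 in the IRAK2 knockout was at 0.097 with 11 and with 12 arrays, at 0.0057 with centred arrays and at 0.11 without the 8 h arrays. The slope of Il1rap between the knockouts was at -0.011 with the mean of its probesets. The causes were not tested.

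Over all genes, the calls of the double knockout against wild type ranged over the alternatives from 733 to 2097 lower (1883 as given) and from 428 to 2837 higher (2575), and those of the IRAK2 knockout from 6 to 258 lower (38) and from 0 to 295 higher (45). Against the IRAK2 knockout the double knockout had 649 to 2045 lower and 356 to 2727 higher, slopes against wild type 6 to 85 lower (12) and 1 to 74 higher (3), and slopes between the knockouts 1 to 7 lower (1) and 0 to 1 higher (0). Slopes with the 0 h arrays were not run, since 0 h has no log2 time. No paired analysis was possible because each group has 1 array. Signal under the floor limits Il1b in the double knockout at 4 h.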
